A study of Mus musculus with 2 samples.

Results

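The 10 genes described here encode the NF-kB transcription factor subunits (Nfkb1, Nfkb2, Rel, Rela and Relb), the classical inhibitors of NF-kB (Nfkbia, Nfkbib and Nfkbie) and the atypical nuclear IkB proteins (Nfkbiz and Bcl3). They were taken by symbol from the 31053 features of the deposited tables, and all 10 had UMIs (unique transcript molecules) in both libraries. The libraries were droplet single-cell RNA profiles of full-thickness back skin from 1 Card14KI mouse, given in the labels as Card14 KI +/+, and 1 wild-type (WT) mouse. Both animals were C57BL/6 and 12 months old, and the series title relates the mutant mice to pityriasis rubra pilaris, in which skin thickens and scales. The labels used here do not name the amino acid change, and a count of Card14 transcripts cannot tell the mutant from the normal allele.

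Filtering left 2835 Card14KI and 4161 WT cells, whose median depth was 6920 UMIs in Card14KI and 7302 UMIs in WT. The libraries shared 2 cell barcodes. Each cell was given to the class whose marker genes it expressed best, so that class names stand for marker gates. Of 19 classes, 12 had 20 or more cells in each library, and 5 were compared in full. These were basal keratinocytes (310 Card14KI and 387 WT cells), spinous keratinocytes (370 and 183), granular keratinocytes (74 and 50), fibroblasts (1357 and 2146), and T and innate lymphoid cells (137 and 338). In each of the 5, the top 10 genes held markers of the class itself and none of another class, except 1 outer root sheath marker among those of fibroblasts. Inner root sheath cells numbered 1 in Card14KI and 163 in WT, so hair follicle cells were sampled very unevenly. With 1 animal per genotype there is no spread between animals and no test. Levels are UMIs per 1000000 UMIs of the class (CPM), and intervals in brackets are 95% intervals that cover counting error only.

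NF-kB dimers are held in the cytoplasm by IkB proteins until a kinase complex, IKK, marks the inhibitor for destruction. CARD14 is a scaffold protein of keratinocytes that activates IKK through BCL10 and MALT1. Several IkB genes are themselves switched on by NF-kB, Nfkbia above all, so that their transcripts serve as readouts of the pathway as well as its brakes. Nfkbiz, induced by IL-17 and IL-1 family signals in skin, works in the nucleus as a co-activator of antimicrobial and chemokine genes.

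Because the IkB genes are known NF-kB targets, their promoters were read for the kB consensus, a motif of 10 bases searched by that name on both strands. The RefSeq windows on GRCm38.p6 covered the 250 bases before a start site and held 7 of the 10 genes in 9 windows. The consensus was found in 6 of the 9 windows, those of Nfkb2, Nfkbia, Nfkbie and Rel, against 7.25% of all 32851 windows. By gene it was found in 4 of the 7. Nfkb2 had several of the windows, some of them overlapping, so the windows are not independent. Below are the windows of Nfkbia (chr12:55492648-55492897, minus strand) and Rel (chr11:23770970-23771219, minus strand), the members with the highest ratios in basal keratinocytes, and of Bcl3 (chr7:19822756-19823005, minus strand), which held no match. Each is printed 5′ to 3′ with matches in capitals. The Nfkbia match begins 29 bases before the start site, and Rel has overlapping matches that begin 92 and 91 bases before it. A match describes the letters and does not show a bound site.

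Nfkbia: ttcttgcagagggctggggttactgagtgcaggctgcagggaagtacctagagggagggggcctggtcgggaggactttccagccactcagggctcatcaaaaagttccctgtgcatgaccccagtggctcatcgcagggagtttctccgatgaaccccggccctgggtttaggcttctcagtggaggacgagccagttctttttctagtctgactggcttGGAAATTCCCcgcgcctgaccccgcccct

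Rel: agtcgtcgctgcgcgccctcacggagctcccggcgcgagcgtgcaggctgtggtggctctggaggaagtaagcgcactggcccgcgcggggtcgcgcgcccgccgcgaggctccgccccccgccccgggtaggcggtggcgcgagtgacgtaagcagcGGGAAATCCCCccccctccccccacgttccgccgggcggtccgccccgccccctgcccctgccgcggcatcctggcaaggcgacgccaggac

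Bcl3: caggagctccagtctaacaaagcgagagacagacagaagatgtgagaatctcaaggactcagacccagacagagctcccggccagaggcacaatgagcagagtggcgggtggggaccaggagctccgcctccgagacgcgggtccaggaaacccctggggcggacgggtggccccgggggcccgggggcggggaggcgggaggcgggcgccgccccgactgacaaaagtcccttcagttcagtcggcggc

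Over whole libraries, Nfkbia had 1296 CPM in Card14KI and 800 CPM in WT, Rel 139 and 78.0 CPM, and Nfkbiz 269 and 155 CPM. Nfkb1 stood at 150 CPM in Card14KI and 146 CPM in WT. Nfkbie was the member with the lower level in Card14KI, at 6.63 CPM against 9.43 CPM in WT. These whole-library levels mix classes of unequal size and depth, and the class levels follow.

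Among the subunits, each gene had its own pattern over the 12 classes, and the heat map of levels shows every value. Nfkb1 (chr3:135584655-135691547), which encodes the precursor of the p50 subunit, was high in macrophages (591 CPM in Card14KI, 341 CPM in WT), T and innate lymphoid cells (450 and 441 CPM) and fibroblasts (312 and 223 CPM). It was lowest in granular keratinocytes, at 2.43 CPM in Card14KI and 9.48 CPM in WT, from 4 and 12 UMIs. Rel (chr11:23736847-23770970), the c-Rel subunit of lymphoid and myeloid cells, was highest in dendritic cells or monocytes, at 662 CPM in Card14KI and 582 CPM in WT. Spinous and granular keratinocytes carried Rel at 204 and 204 CPM in Card14KI and at 142 and 137 CPM in WT, levels whose counting intervals overlap within each library. Fibroblasts, at 85.6 CPM in Card14KI and 46.4 CPM in WT, and lymphatic endothelial cells, at 23.1 and 23.6 CPM, held less of it.

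Nfkb2 (chr19:46304320-46312385) and Relb (chr7:19606217-19629438) encode the partners of the non-canonical branch. Nfkb2 was highest in neutrophils, at 141 CPM in Card14KI and 127 CPM in WT, from 10 UMIs in each library, and then in T and innate lymphoid cells (64.3 and 48.9 CPM). Relb reached 68.4 CPM in Card14KI and 49.7 CPM in WT T and innate lymphoid cells. From few UMIs, it was higher in WT neutrophils (76.0 CPM, 6 UMIs) and WT macrophages (52.2 CPM, 13 UMIs). In Card14KI these classes had 28.2 and 14.4 CPM, from 2 UMIs each. Sebocytes were low for both, with 4.39 and 4.87 CPM of Nfkb2 and 2.09 and 3.51 CPM of Relb. Rela (chr19:5637483-5648130), which encodes the main transactivating subunit, ran between 15.2 CPM in granular keratinocytes and 97.6 CPM in lymphatic endothelial cells of Card14KI skin, and between 11.1 CPM in granular keratinocytes and 177 CPM in neutrophils of WT skin.

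Among the inhibitors, Nfkbia (chr12:55489410-55492647), which encodes IkB alpha, was found in all 12 classes of both libraries. In Card14KI skin, spinous keratinocytes (1714 CPM), T and innate lymphoid cells (1685 CPM) and macrophages (1623 CPM) had overlapping intervals at the top. In WT skin, neutrophils led at 2140 CPM (1830 to 2488), ahead of spinous keratinocytes (1618 CPM) and granular keratinocytes (1607 CPM). Sebocytes were lowest, at 161 CPM in Card14KI and 110 CPM in WT. Nfkbia was also found in red-cell barcodes, which should not express it. Among barcodes with 50% or more haemoglobin UMIs, 11.6% in Card14KI and 12.1% in WT held an Nfkbia UMI, at a median of 142.5 and 174 UMIs other than haemoglobin. Their level was 690 CPM in Card14KI and 650 CPM in WT, from 23 and 16 UMIs. Sebocytes and B or plasma cells lay below that level in both libraries, and basal keratinocytes (558 CPM) and lymphatic endothelial cells (605 CPM) lay below it in WT. The barcode level rests on few UMIs and is given per UMI other than haemoglobin. A class level below it does not show whether the Nfkbia was free RNA or the cells' own. The part of free RNA in these groups was not tested.

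Nfkbib (chr7:28758251-28767512), the IkB beta gene, had its highest level in granular keratinocytes in both libraries, at 127 CPM in Card14KI and 71.1 CPM in WT. Nfkbie (chr17:45555703-45563169), the IkB epsilon gene, was highest in immune classes. It had 119 CPM in Card14KI and 96.5 CPM in WT dendritic cells or monocytes, and 98.8 and 152 CPM in neutrophils. In spinous keratinocytes it had 1.16 CPM in Card14KI and 1.97 CPM in WT.

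Of the nuclear IkB genes, Nfkbiz was highest in macrophages of Card14KI skin and in neutrophils of WT skin. Nfkbiz (chr16:55811375-55838899) had 591 CPM in Card14KI and 450 CPM in WT macrophages, and 226 and 848 CPM in neutrophils. Fibroblasts (368 CPM in Card14KI, 210 CPM in WT) and basal keratinocytes (316 and 156 CPM) also carried it. Bcl3 (chr7:19808462-19822770), a co-regulator that binds p50 and p52 dimers, had 224 CPM in Card14KI and 64.2 CPM in WT macrophages and 212 and 291 CPM in neutrophils. In sebocytes Bcl3 was at 0.627 CPM in Card14KI and 0.975 CPM in WT.

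**Figure D1:**
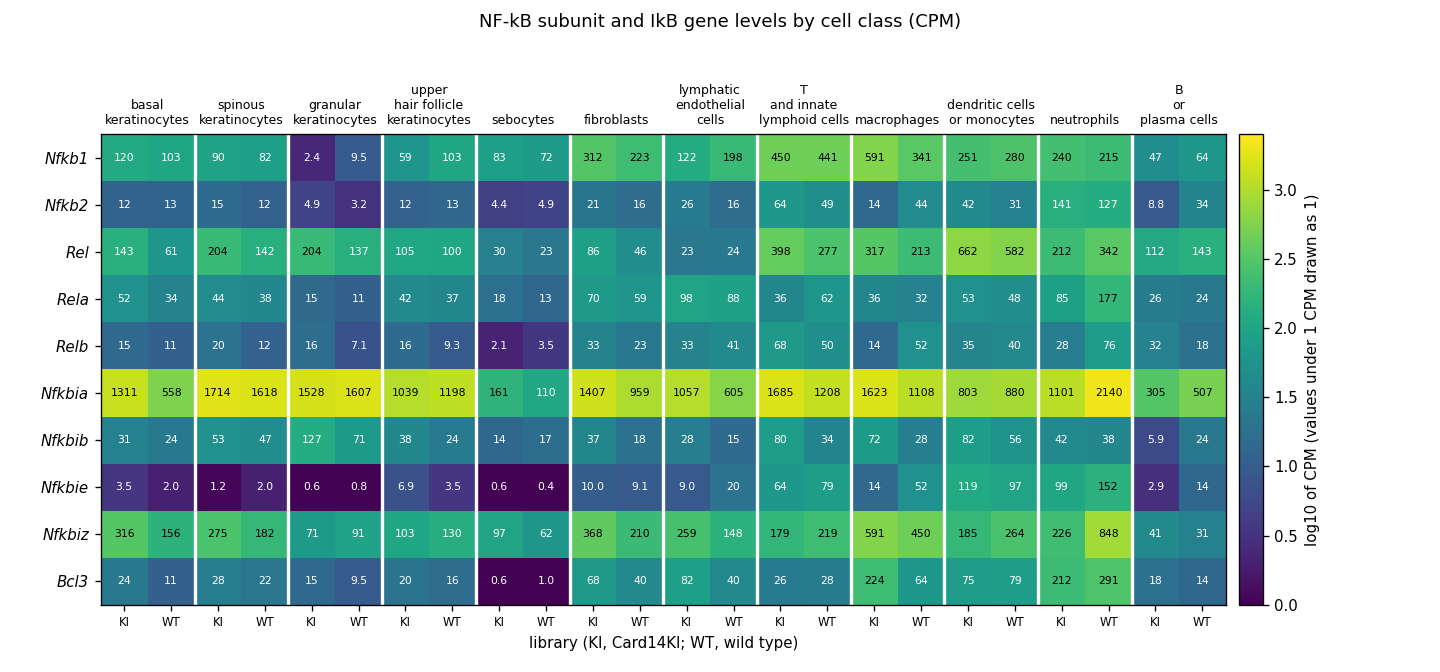
Level of each of the 10 genes (rows, CPM printed in each cell, colour on a log10 scale) in 12 cell classes, each with Card14KI (KI) left of WT. Nfkbia is bright in most columns of both libraries, Rel is brightest in dendritic cells or monocytes (662 CPM in Card14KI, 582 CPM in WT), and Nfkbie is dark in keratinocyte columns.

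In basal keratinocytes, most members had a higher level in Card14KI skin, led by Rel and Nfkbia. Rel had 143 CPM in Card14KI and 61.3 CPM in WT, a ratio of 2.33 (2.11 to 2.57). Nfkbia had 1311 CPM in Card14KI and 558 CPM in WT, a ratio of 2.35 (2.27 to 2.43). Both were more than 1.5-fold higher in the Card14KI library. The WT level of Nfkbia lay below the 650 CPM of WT red-cell barcodes, and the part of free RNA in its ratio was not tested. Bcl3 had 23.7 CPM in Card14KI and 11.02 CPM in WT, a ratio of 2.15 (1.69 to 2.75), and Nfkbiz 316 and 156 CPM, a ratio of 2.02 (1.89 to 2.15). Rela was closer, with 52.1 CPM in Card14KI and 33.6 CPM in WT, a ratio of 1.55 (1.34 to 1.79). The other subunits differed less. Nfkb1 had a ratio of 1.16 (1.06 to 1.27), Relb of 1.33 (1.03 to 1.74) and Nfkb2 of 0.97 (0.74 to 1.27). Nfkbib stood at 1.29 (1.08 to 1.55), and Nfkbie, from 33 Card14KI and 18 WT UMIs, at 1.78 (0.97 to 3.35).

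Of the 9 members with 100 or more UMIs in basal keratinocytes, 5 were 1.5-fold or more higher in Card14KI, where 6.85% of all such genes were, and none was 1.5-fold or more lower, where 17.2% were. By any amount, 8 of the 9 were higher, where 30.1% of all such genes were. The median log2 ratio was 0.73 over all 10 members and 0.63 over these 9, against -0.20 over all genes with 100 or more UMIs. TMM scaling moved every log2 ratio of this class up by 0.21.

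Within single basal cells the Nfkbia level was widely spread. The median cell had 515 CPM in Card14KI (quartiles 189 and 1647) and 169 CPM in WT (quartiles 0 and 637), so the cells of the libraries overlapped broadly. An Nfkbia UMI was found in 88.7% of Card14KI and 70.0% of WT basal cells, at a median depth of 16270 and 11492 UMIs. With each cell thinned to 2000 UMIs, which kept 294 Card14KI and 340 WT cells, the shares were 62.9% and 41.2%. For Rel the thinned shares were 19.7% in Card14KI and 11.2% in WT, and for Nfkbiz 31.3% and 19.4%, against unthinned 63.5% and 42.1% for Rel and 81.6% and 51.9% for Nfkbiz. In red-cell barcodes the unthinned shares were 1.16% in Card14KI and 0% in WT for Rel, and 1.74% and 1.72% for Nfkbiz. The count of 0 for Rel in WT has an exact binomial interval that reaches 3.13%. These barcodes had a median of 142.5 and 174 UMIs other than haemoglobin, so their shares cannot be set against those of basal cells. Per UMI other than haemoglobin, Rel stood at 90.0 CPM in Card14KI (3 UMIs) and 0 CPM in WT. Nfkbiz stood at 90.0 CPM in Card14KI (3 UMIs) and 81.3 CPM in WT (2 UMIs). The part of free RNA in the basal Rel and Nfkbiz levels was not tested.

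**Figure D2:**
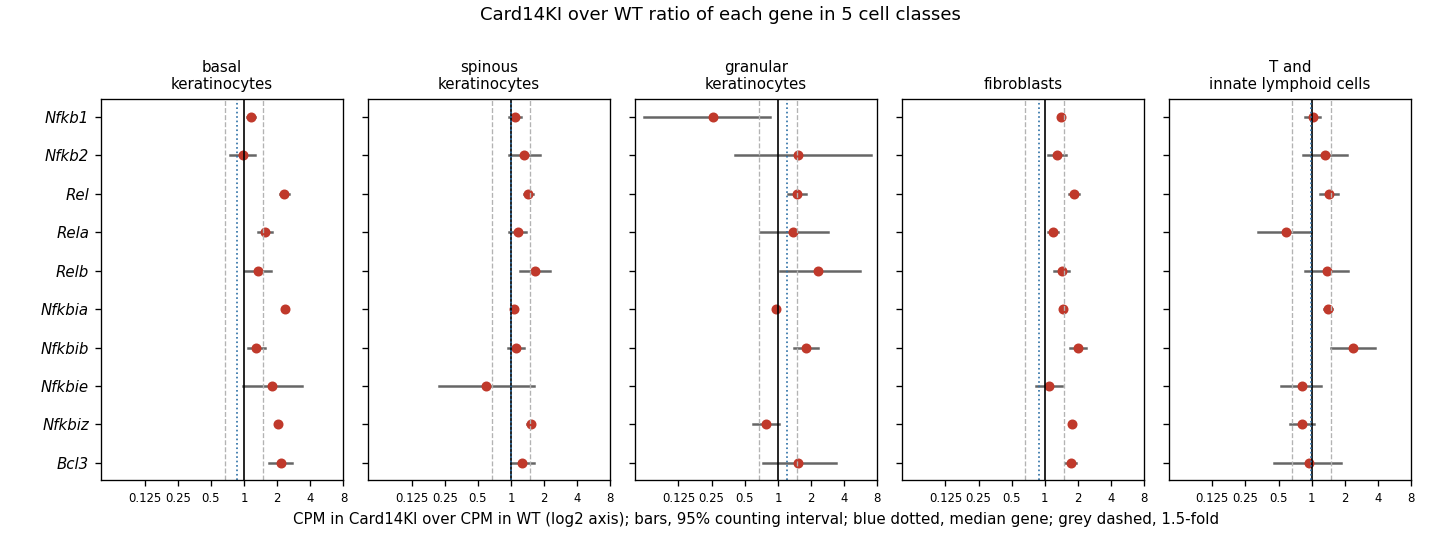
Ratio of the level in Card14KI to that in WT (points, log2 axis) with its 95% counting interval (bars) for each gene in 5 cell classes. Genes with under 10 UMIs are not drawn; the blue dotted line marks the median gene of the class and the grey dashed lines 1.5-fold. In basal keratinocytes Rel (2.33), Nfkbia (2.35), Nfkbiz (2.02) and Bcl3 (2.15) lie furthest right, whereas in spinous and granular keratinocytes Nfkbia lies near 1 (1.06 and 0.95).

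The basal gate did not hold the same cells in both libraries. Leiden clusters, formed without the 10 genes and without the pathway lists used below, divided it into 5 groups of 20 or more cells over both libraries. A cluster led by Krt1 and Krt10, suprabasal keratins, held 106 Card14KI and 34 WT cells, or 57.5% of Card14KI and 17.9% of WT basal UMIs. A cluster led by Pinlyp and Cpm held 1 Card14KI and 95 WT cells, or 0.703% of Card14KI and 37.8% of WT basal UMIs. That WT cluster had low levels of Nfkbia (240 CPM), Rel (36.3 CPM), Nfkbiz (72.4 CPM) and Bcl3 (3.75 CPM). Summed spinous markers in the basal gate were 10018 CPM in Card14KI and 3330 CPM in WT, upper hair follicle markers 2138 and 4366 CPM, and outer root sheath markers 746 and 1287 CPM. Dendritic cell or monocyte markers summed to 668 CPM in Card14KI and 122 CPM in WT, with 3 of 11 at 0 in each. Beyond the cluster comparison that follows, the part of these markers in the basal ratios was not tested.

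Compared cluster by cluster, Rel was higher in Card14KI in each of the 3 clusters that both libraries shared. Its levels were 71.9 CPM in Card14KI and 48.1 CPM in WT in the cluster led by Akr1c18, 167 and 130 CPM in the Krt1 cluster, and 144 and 68.1 CPM in the cluster led by Cst6. The ratios were 1.49 (1.14 to 1.95), 1.28 (1.10 to 1.497) and 2.11 (1.69 to 2.65). All 3 intervals of Rel were clear of 1. Nfkbib was also higher in all 3 clusters, with ratios between 1.14 and 1.59 and an interval clear of 1 in the Krt1 cluster alone. Nfkbia differed in the Krt1 cluster, with 1636 CPM in Card14KI and 1045 CPM in WT, a ratio of 1.57 (1.49 to 1.65). In the Cst6 cluster its ratio was 1.15 (1.08 to 1.22), and in the Akr1c18 cluster 0.98 (0.88 to 1.08). Nfkbiz likewise had a ratio of 1.56 (1.40 to 1.74) in the Krt1 cluster, but 1.13 (0.97 to 1.32) and 0.96 (0.84 to 1.09) in the Akr1c18 and Cst6 clusters. Bcl3 was at 29.8 CPM in Card14KI and 26.2 CPM in WT in the Krt1 cluster and at 24.9 and 25.7 CPM in the Cst6 cluster, so its pooled excess was not seen within either.

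**Figure D3:**
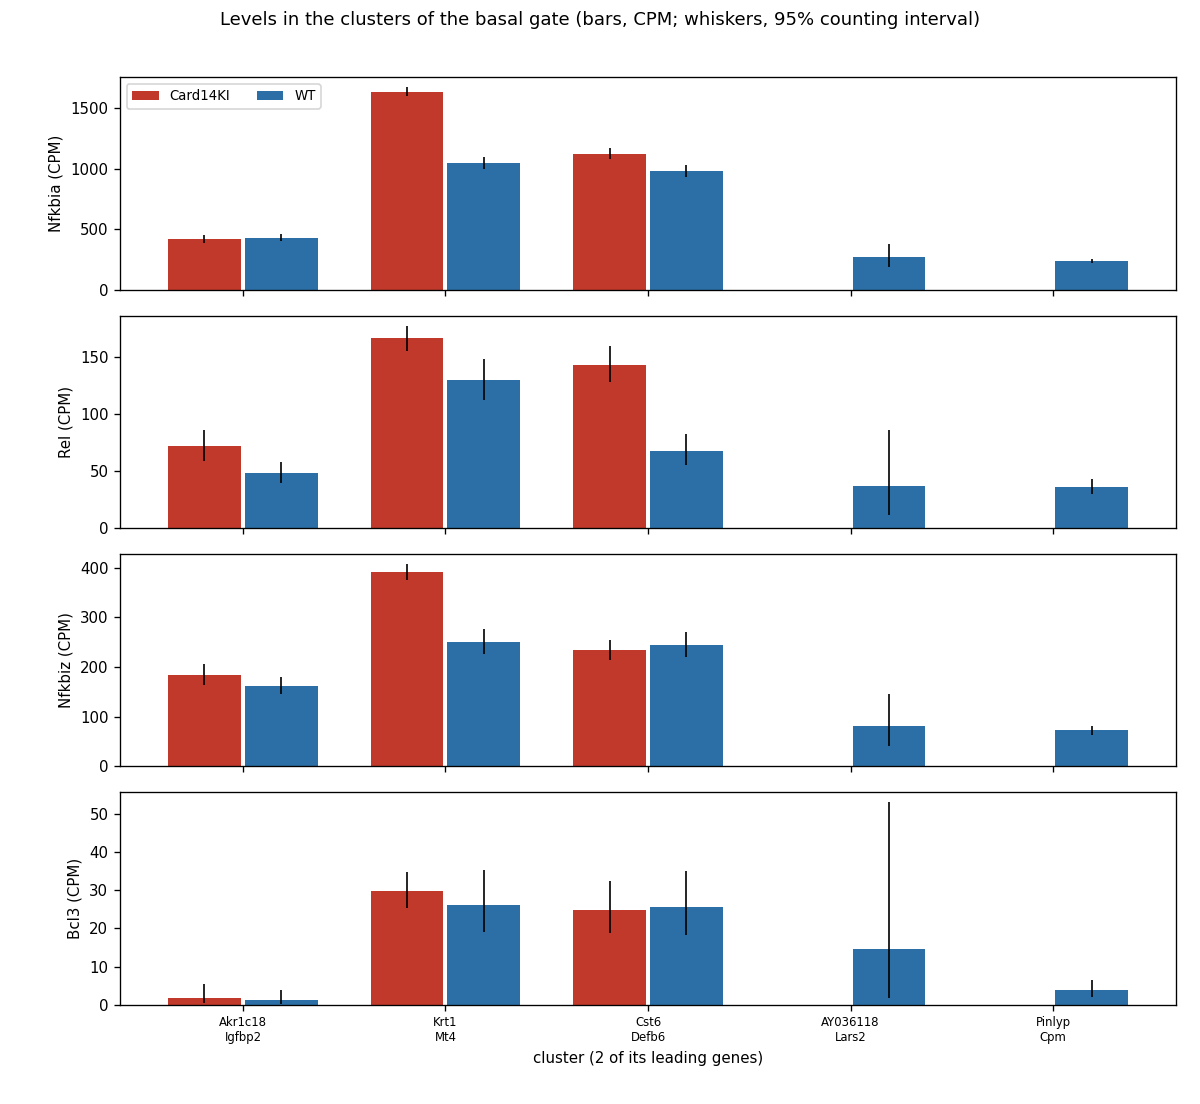
Levels (CPM, linear axis from 0) of Nfkbia, Rel, Nfkbiz and Bcl3 in the clusters of the basal gate, Card14KI left of WT, with 95% counting intervals as whiskers. A cluster with fewer than 20 Card14KI cells shows WT alone. The Pinlyp cluster, with 95 WT cells, is low for all 4 genes, and Rel is taller in Card14KI in all 3 shared clusters.

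When the 3 shared clusters were given the same weights in each library, the basal log2 ratios were 0.55 for Rel, 0.45 for Nfkbia, 0.39 for Nfkbiz, 0.28 for Rela and 0.12 for Bcl3, against 1.22, 1.23, 1.01, 0.63 and 1.10 for the cells as sampled. With these weights 1 member with 10 or more UMIs was past 1.5-fold, the low-count Nfkbie, against 6 as sampled. The share of all genes past 1.5-fold is not given for these weights or this UMI limit. The direction held for these 5 genes, and the size was smaller for each.

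In spinous keratinocytes the members differed less and in another order. Relb had 19.6 CPM in Card14KI and 11.8 CPM in WT, a ratio of 1.66 (1.22 to 2.29). Nfkbiz had 275 CPM in Card14KI and 182 CPM in WT, a ratio of 1.51 (1.40 to 1.64), and Rel 204 and 142 CPM, a ratio of 1.44 (1.32 to 1.58). Nfkbia, the basal leader, was nearly level here, with 1714 CPM in Card14KI and 1618 CPM in WT, a ratio of 1.06 (1.03 to 1.09). Of the 9 members with 100 or more UMIs, 2 were 1.5-fold or more higher in Card14KI, where 4.96% of all such genes were, none was 1.5-fold or more lower, where 3.22% were, and all 9 were higher by any amount, where 49.8% were. The Nfkbiz call held in 5 of 12 alternatives, with a log2 ratio of 0.12 when cells were thinned to 2000 UMIs, against 0.59. The median log2 ratio was 0.27 over all 10 members and 0.35 over these 9, against -0.00 over all genes with 100 or more UMIs.

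Of the 3 clusters of the spinous gate with 20 or more cells in each library, the one led by Ccl20, Sprr2i and Slpi had the largest ratios of Rel, Relb, Nfkbiz and Bcl3. In this cluster of 66 Card14KI and 26 WT cells, Rel had 334 CPM in Card14KI and 170 CPM in WT, a ratio of 1.97 (1.68 to 2.33). Nfkbiz had 314 CPM in Card14KI and 128 CPM in WT, a ratio of 2.46 (2.05 to 2.97). Relb had 30.9 CPM in Card14KI and 9.11 CPM in WT, a ratio of 3.39 (1.74 to 7.37), and Bcl3 38.1 and 19.1 CPM, a ratio of 1.99 (1.23 to 3.37). Nfkbia in the same cells was at 1991 CPM in Card14KI and 1906 CPM in WT. Another cluster, of 95 Card14KI and 63 WT cells, ran the other way for Nfkbia (1181 and 1648 CPM, a ratio of 0.72, 0.66 to 0.78) and Bcl3 (15.2 and 33.9 CPM, a ratio of 0.45, 0.21 to 0.93). Its leading genes in the gate included Krt71 and Krt25, which mark the inner root sheath, and inner root sheath markers in the spinous gate summed to 8.42 CPM in Card14KI and 578 CPM in WT. Dendritic cell or monocyte markers in this gate summed to 446 CPM in Card14KI and 107 CPM in WT. The part of either list in the result was not tested. Leaving out 13 Card14KI cells that carried Langerhans cell genes, such as Cd207, left the spinous median log2 ratio at 0.22.

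In granular keratinocytes, the outermost living layer, Nfkbib had 127 CPM in Card14KI and 71.1 CPM in WT, a ratio of 1.78 (1.39 to 2.31). The median gene of this class was itself higher in Card14KI, at a log2 ratio of 0.29, and TMM scaling lowered every log2 ratio by 0.28. The 1.5-fold call of Nfkbib was lost with TMM (log2 ratio 0.55) and with median-of-ratios scaling (0.52), against 0.83. Rel had 204 CPM in Card14KI and 137 CPM in WT, a ratio of 1.49 (1.24 to 1.80). Nfkbia, at 1528 CPM in Card14KI and 1607 CPM in WT, and Nfkbiz, at 71.0 and 90.8 CPM, had ratios of 0.95 (0.90 to 1.01) and 0.78 (0.60 to 1.02). Without its top cell in each library Nfkbiz had a log2 ratio of 0.29, against -0.36. Of the 4 members with 100 or more UMIs 1 (Nfkbib) was 1.5-fold or more higher, where 23.9% of all such genes were, and none was lower by as much, where 5.63% were. By any amount, 2 of the 4 were higher, where 71.8% of all such genes were, so these counts do not stand above the background. The remaining members had few UMIs. Relb had 27 UMIs in Card14KI and 9 in WT, and Nfkb1 4 and 12.

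Over the keratinocyte classes together, without sebocytes, Rel had 171 CPM in Card14KI and 75.5 CPM in WT, a ratio of 2.26 (2.13 to 2.39). Nfkbiz followed at 2.17, Bcl3 at 2.09, Relb at 1.94 and Nfkbia at 1.82. The libraries held these classes in different shares, with 370 Card14KI and 183 WT spinous cells and 1 and 163 inner root sheath cells. The basal, spinous, granular and upper hair follicle classes were then weighted alike, with inner and outer root sheath cells left out. The ratios were 1.67 for Rel, 1.67 for Nfkbiz, 1.58 for Bcl3, 1.53 for Relb and 1.35 for Nfkbia. The pooled and weighted ratios thus differ in the classes they hold as well as in the weights. Nfkb1 had a ratio of 1.19 pooled and 1.07 with the same weights. Class weights leave cluster differences inside a gate in place, such as the Pinlyp cluster with 0.703% of Card14KI and 37.8% of WT basal UMIs.

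In fibroblasts all 10 members were higher in Card14KI, where 29.4% of all genes with 100 or more UMIs were. Nfkbib had 36.6 CPM in Card14KI and 18.3 CPM in WT, a ratio of 2.002 (1.71 to 2.35), and Rel 85.6 and 46.4 CPM, a ratio of 1.84 (1.67 to 2.04). Nfkbiz had 368 CPM in Card14KI and 210 CPM in WT, a ratio of 1.75 (1.67 to 1.84), and Bcl3 68.4 and 39.8 CPM, a ratio of 1.72 (1.54 to 1.92). These 4 were past 1.5-fold, where 4.97% of all genes were higher and 12.6% lower. Nfkbia had 1407 CPM in Card14KI and 959 CPM in WT, a ratio of 1.47 (1.43 to 1.502). Nfkb1 was at 312 CPM in Card14KI and 223 CPM in WT, a ratio of 1.40 (1.33 to 1.47). Relb, Nfkb2, Rela and Nfkbie had ratios of 1.42, 1.29, 1.19 and 1.09. The median log2 ratio was 0.53 over the members and -0.17 over all genes, and TMM scaling raised every value by 0.14.

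The fibroblast clusters differed in size between the libraries, and the members differed strongly between clusters. A cluster led by Ptgs2 and Procr held 14.0% of Card14KI and 7.18% of WT fibroblasts, and a cluster led by Ptgs2 and Ccl2 held 11.7% and 3.31%. These clusters, formed without Ptgs2, Ccl2 and the 10 genes as input, had the highest levels of Nfkb1, Nfkbiz and Rel among the 11 clusters of the gate in both libraries. In the Procr cluster Nfkb1 had 739 CPM in Card14KI and 942 CPM in WT, and Rel 203 and 203 CPM. In the Ccl2 cluster Nfkbia had 2393 CPM in Card14KI and 3173 CPM in WT, and Nfkbiz 729 and 727 CPM. Within both clusters, then, Nfkb1, Nfkbia and Nfkbiz were level or lower in Card14KI. At the other end, a cluster led by Mmp13 and Spp1 held 1.84% of Card14KI and 11.9% of WT fibroblasts, with 684 CPM of Nfkbia in Card14KI and 519 CPM in WT, and 19.6 and 24.2 CPM of Rel, a ratio of 0.81 (0.10 to 3.03).

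**Figure D4:**
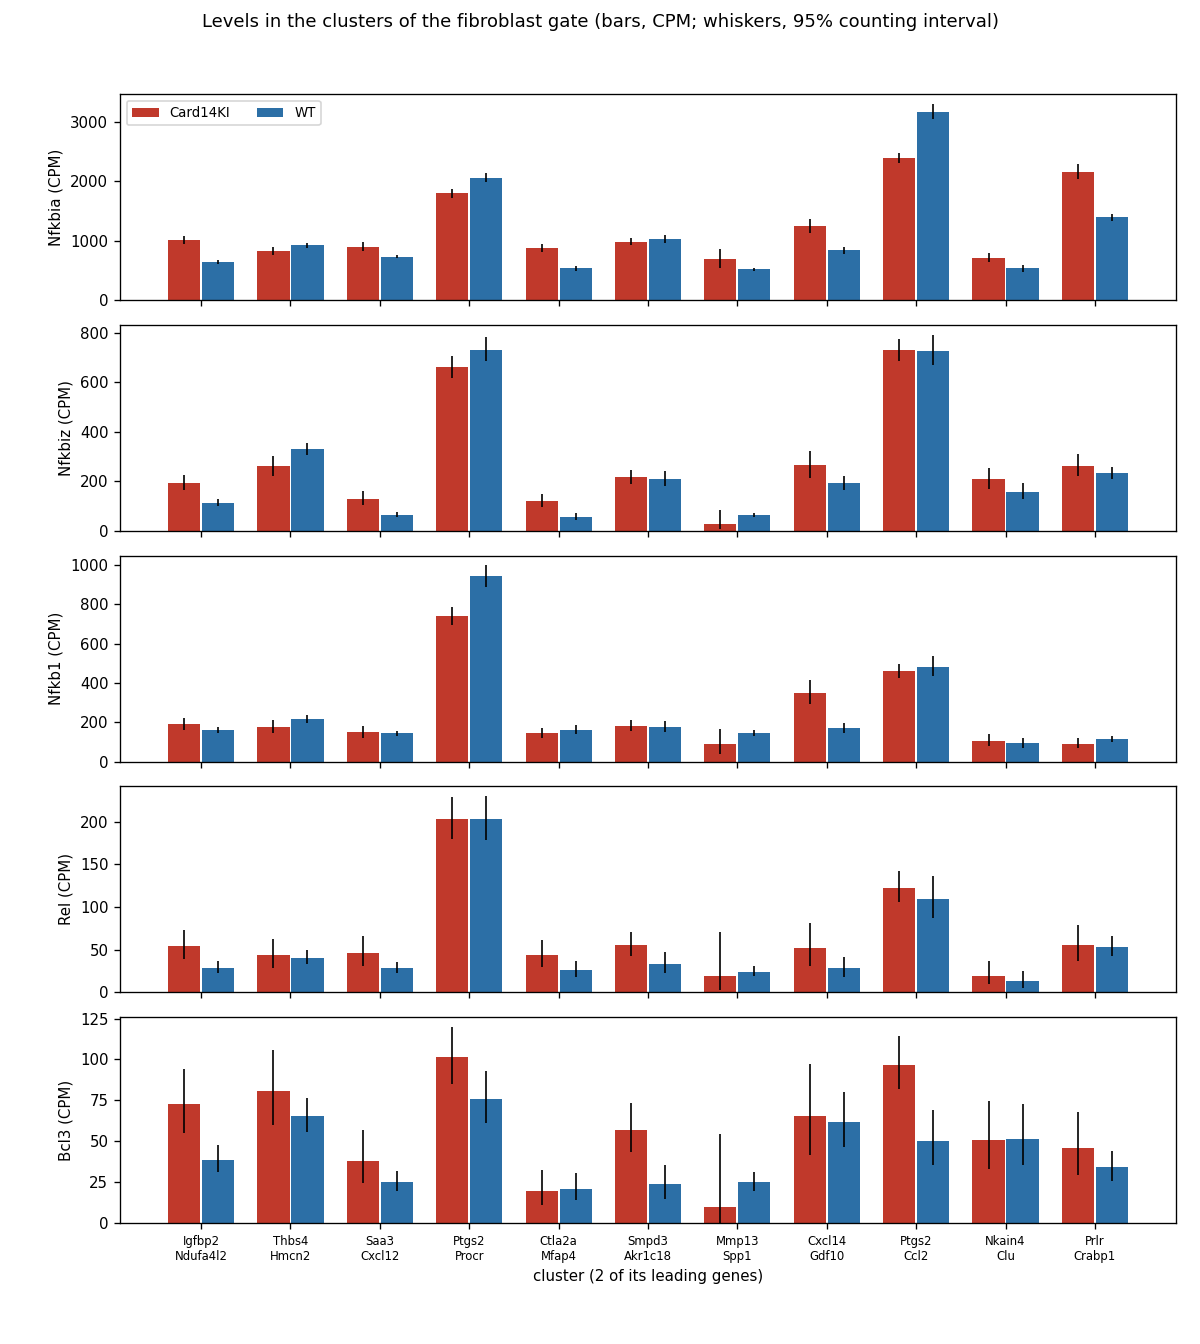
Levels (CPM, linear axes from 0) of Nfkbia, Nfkbiz, Nfkb1, Rel and Bcl3 in 11 fibroblast clusters, Card14KI left of WT, with 95% counting intervals as whiskers. The 2 clusters led by Ptgs2 are the tallest for Nfkbiz, Nfkb1 and Rel in both libraries, and there Nfkb1 is not higher in Card14KI (739 against 942 CPM and 459 against 483 CPM).

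Counted by any ratio above 1, most members were higher in Card14KI in most fibroblast clusters. Such counts include ratios whose intervals are not clear of 1. The share of all genes that were higher within each cluster was not computed, so the counts have no background beside them. Rel was higher in 10 of 11 clusters, Relb in 9, and Nfkb2, Nfkbiz and Bcl3 in 8 each, and Nfkbib was higher in 8 of the 10 clusters where it had UMIs in both libraries. In the Ccl2 cluster Bcl3 had 96.9 CPM in Card14KI and 50.02 CPM in WT, a ratio of 1.94 (1.34 to 2.86), and Nfkbib 67.8 and 32.4 CPM, a ratio of 2.09 (1.33 to 3.41). Nfkbia was higher in 7 and Nfkb1 in 5 of 11 clusters. Weighted alike over clusters, the log2 ratios were 0.46 for Bcl3, 0.44 for Nfkbib, 0.41 for Relb, 0.40 for Nfkb2, 0.26 for Rel, 0.12 for Nfkbia, 0.07 for Nfkbiz and -0.13 for Nfkb1, and no member was past 1.5-fold. The median was then 0.30, and the share of all genes past 1.5-fold is not given for these weights. Fibroblast markers summed to 28183 CPM in Card14KI and 48109 CPM in WT. Markers of other cell types also differed in this gate, with 24.2 CPM in Card14KI and 775 CPM in WT for B or plasma cells, 47.5 and 392.3 CPM for mural or smooth muscle cells, and 25.4 and 141 CPM for neutrophils. Their part in the ratios was not tested.

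**Figure D5:**
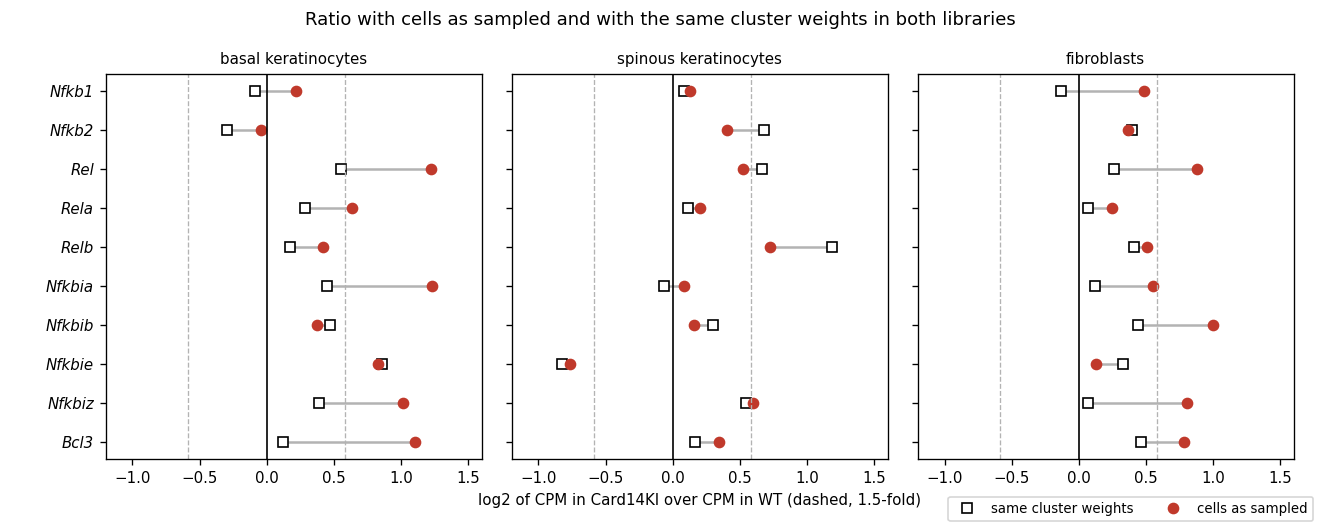
Log2 ratio of Card14KI to WT for each gene in basal keratinocytes, spinous keratinocytes and fibroblasts. Red circles show the cells as sampled, and open squares the same cluster weights in both libraries. Clusters with under 20 cells in either library are left out of the squares. In basal keratinocytes Bcl3 goes to 0.12 and Nfkbia to 0.45, and in fibroblasts Nfkbiz goes to 0.07 and Nfkb1 to -0.13, whereas spinous Relb goes to 1.18.

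T and innate lymphoid cells showed few differences. Nfkbib had 80.4 CPM in Card14KI and 34.0 CPM in WT, a ratio of 2.36 (1.48 to 3.77) from 40 and 39 UMIs. Rel had 398 CPM in Card14KI and 277 CPM in WT, a ratio of 1.44 (1.199 to 1.72), and Nfkbia 1685 and 1208 CPM, a ratio of 1.39 (1.28 to 1.52). Rela, from 18 and 71 UMIs, went the other way at 36.2 CPM in Card14KI and 62.0 CPM in WT, a ratio of 0.58 (0.33 to 0.99). Nfkb1 was level, at 450 CPM in Card14KI and 441 CPM in WT. None of the 5 members with 100 or more UMIs was past 1.5-fold, where 4.49% of all such genes were higher and 8.81% lower. By any amount, 3 of the 5 were higher, where 48.1% of all such genes were.

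The smaller classes were not compared in full. Upper hair follicle keratinocytes and sebocytes had 6 members each with 100 or more UMIs, and dendritic cells or monocytes 7. Macrophages had 3, neutrophils 1 and B or plasma cells 2. In upper hair follicle keratinocytes Nfkb1 had a ratio of 0.58 (0.45 to 0.75) and Nfkbia of 0.87 (0.81 to 0.93). Nfkbiz stood there at 0.79 (0.64 to 0.97), whereas Nfkbib stood at 1.57 (1.04 to 2.38). Sebocytes had ratios of 1.34 for Rel, 1.47 for Nfkbia and 1.55 for Nfkbiz. Dendritic cells or monocytes had Nfkbiz at 0.70 (0.54 to 0.89). Lymphatic endothelial cells had 1057 CPM of Nfkbia in Card14KI and 605 CPM in WT, a ratio of 1.75 (1.57 to 1.94), and 122 and 198 CPM of Nfkb1, a ratio of 0.62 (0.48 to 0.79). In macrophages Bcl3 had a ratio of 3.48 (1.85 to 6.81) from 31 Card14KI and 16 WT UMIs, and Nfkb1 of 1.73 (1.26 to 2.38). Dendritic cell or monocyte markers in the macrophage gate summed to 12650 CPM in Card14KI and 31672 CPM in WT, and their part in these ratios was not tested. Nfkbia had 1101 CPM in Card14KI and 2140 CPM in WT neutrophils, a ratio of 0.51 (0.39 to 0.68), and Nfkbiz 226 and 848 CPM, a ratio of 0.27 (0.14 to 0.46), from 16 and 67 UMIs in 33 and 45 cells. No other member had an interval clear of 1 in neutrophils. Dendritic cell or monocyte markers in that gate summed to 3585 CPM in Card14KI and 1393 CPM in WT, and their part was not tested. B or plasma cells, at 305 CPM in Card14KI and 507 CPM in WT, were also lower for Nfkbia.

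In basal and spinous keratinocytes the kinases and adaptors upstream of the 10 genes had counts and medians near those of all genes. Of 23 listed IKK and upstream genes, 21 had 100 or more UMIs in basal keratinocytes. Of these Myd88, the adaptor of IL-1 and Toll-like receptors, was past 1.5-fold higher, at 26.6 CPM in Card14KI and 16.0 CPM in WT. Map3k7, the TAK1 kinase gene, at 22.7 and 37.3 CPM, and Tab2, its partner, at 53.9 and 82.6 CPM, were past 1.5-fold lower. Over all genes 6.85% were higher and 17.2% lower. The list's median log2 ratio was -0.15, against -0.20 over all genes. In fibroblasts 1 of 22 was higher, again Myd88, at 67.4 CPM in Card14KI and 40.5 CPM in WT, and 5 were lower, with a median of -0.19 against -0.17 over all genes, of which 4.97% were higher and 12.6% lower. In spinous keratinocytes none of 19 was past 1.5-fold, and Card14, the mutated gene, had 29.7 CPM in Card14KI and 40.1 CPM in WT, a ratio of 0.74 (0.61 to 0.90). Among 8 other IkB-like genes and NF-kB modulators, none was past 1.5-fold in basal keratinocytes (6 with 100 UMIs), spinous keratinocytes (7) or fibroblasts (7).

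Listed NF-kB target genes were pooled over each gate, also where clusters differed in size between the libraries, and were not compared within clusters here. Some of their ratios were larger than that of any member in the same class. In basal keratinocytes 8 of 16 were past 1.5-fold higher and 1 was lower, where 6.85% and 17.2% of all genes were. Ccl20, the chemokine that draws IL-17 producing cells, had 103 CPM in Card14KI and 4.26 CPM in WT, a ratio of 24.2 (17.6 to 34.3), and Zc3h12a, an RNase gene induced by IL-17, 62.3 and 19.8 CPM. Sod2 was lower, at 109 CPM in Card14KI and 169 CPM in WT. In spinous keratinocytes 6 of 16 were higher and none lower, where 4.96% and 3.22% of all genes were, led by Cxcl2 (55.2 CPM in Card14KI, 7.89 CPM in WT) and Il23a (17.5 and 2.85 CPM). In fibroblasts 6 of 18 were higher, where 4.97% of all genes were, led by Ccl2 (1260 CPM in Card14KI, 344 CPM in WT) and Il6 (420 and 139 CPM). Cxcl5 was the listed target that was lower there, with 0 UMIs in Card14KI and 244 in WT, at least 37.5-fold lower against a floor of 3 counts. Ccl2 was a leading gene of a cluster that held 17.9% of Card14KI and 4.15% of WT fibroblast UMIs. In granular keratinocytes 3 of 7 were higher and 1 was lower, where 23.9% and 5.63% of all genes were, and 4 of 7 were higher by any amount, where 71.8% were. Csf2 had 100.1 CPM in Card14KI and 7.11 CPM in WT. In T and innate lymphoid cells 3 of 15 were higher and 1 was lower, where 4.49% and 8.81% of all genes were, led by Cd83 (159 CPM in Card14KI, 26.2 CPM in WT).

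Immediate early and heat shock genes, which respond to tissue digestion, were also higher in Card14KI in some classes. In basal keratinocytes 8 of 16 were past 1.5-fold higher, where 6.85% of all genes were, with Dusp1 at 1159 CPM in Card14KI and 510 CPM in WT, and their summed level was 1.43 times that of WT. In fibroblasts 4 of 16 were higher, where 4.97% of all genes were, with a summed ratio of 1.24. The summed ratio was 2.33 in lymphatic endothelial cells, 1.56 in macrophages and 0.78 in neutrophils. In spinous keratinocytes the summed ratio was 0.98 and in T and innate lymphoid cells 0.87. The part of this list in the members' ratios was not tested.

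Across 24 points of class and library with 30 or more cells, the members varied together in part. These correlations of log2(CPM + 10) are descriptions over points that share libraries and depth, among 8436 genes. The closest among the members were Nfkb2 with Nfkbie (r = 0.90), Rela with Bcl3 (r = 0.85) and Nfkb2 with Bcl3 (r = 0.83). Rel with Rela had r = 0.18 and Nfkb1 with Nfkbib r = -0.12. The genes most like Rel were Dapp1 (r = 0.90), Pim1 (r = 0.86) and Nfkbid (r = 0.82). Those most like Nfkbia were Dusp1 (r = 0.89), Junb (r = 0.84) and Tsc22d4 (r = 0.83). Nfkbie was closest to Fes (r = 0.97), Gpsm3 (r = 0.96) and Gpr132 (r = 0.95), and Nfkb2 to Gpsm3 (r = 0.94), Card19 (r = 0.94) and Zdhhc18 (r = 0.93). Bcl3 was closest to Mcl1 (r = 0.94), Map7d1 (r = 0.90) and Sat1 (r = 0.90), and Nfkbiz to Adam17 (r = 0.86), Tiparp (r = 0.85) and Csrnp1 (r = 0.83). For Nfkb1 the nearest genes included Rock1 (r = 0.93) and Lnpep (r = 0.92), for Rela Ing3 (r = 0.89), Klf7 (r = 0.88) and Carhsp1 (r = 0.87), for Relb H2-D1 (r = 0.92), Trim12a (r = 0.91) and Rap1b (r = 0.90), and for Nfkbib Ppp2ca (r = 0.85), Map3k8 (r = 0.76) and Fam110a (r = 0.75).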

How the data were processed

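The deposited tables hold UMI counts, whole numbers per gene and barcode that the authors did not normalize. Per the submitters' processing notes they were counted with Cell Ranger 6.0.2 on mm10, and per the file headers with Cell Ranger 5.0.0. The kit reads the 3′ end of transcripts, so levels do not depend on length as full-length reads do. The members and gene lists were chosen with earlier results of these data known.

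Barcodes with under 500 genes or 20% or more mitochondrial UMIs were removed (435 Card14KI, 681 WT). The automatic Scrublet threshold marked 4 and 2 cells, too few to be a working call; instead the top scores were removed at 0.8% per 1000 barcodes (78 and 174 cells). Kept cells held 38637117 and 51098735 UMIs. A cell's class was the best mean of scaled markers, at 0.15 or more. Class sums were scaled to class totals (CPM). Levels have exact Poisson, ratios exact conditional binomial and shares Clopper-Pearson intervals, at 95%. A count of 0 allows a UMI in up to 0.106% of Card14KI and 0.0721% of WT cells, taking 3 counts as the floor, and sets no limit on cells that express a gene. Intervals leave out differences between cells and animals. Clusters used scanpy 1.11.5 (2000 variable genes, 30 components, 20 neighbours, Leiden resolution 2). The same cluster weights, and the spinous gate without Langerhans-gene cells, were chosen after seeing the data. Each weight was the cluster's UMIs summed over both libraries, and clusters with under 20 cells in either library were left out. Among those left out was a spinous cluster with 30.0% of Card14KI and 14.0% of WT spinous UMIs. Coordinates are GRCm38, GENCODE vM21, 1-based. Named genes were all 10 members, the 3 most alike genes of each (1 is not reported here), and up to 4 of each list with the largest and smallest ratios. The ratio intervals were tested on simulated data. TMM factors came from edgeR 4.0.16.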

Additional observations from a re-analysis of the deposited data

How the results depend on the processing

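No paired analysis was possible because each genotype has 1 animal, and for the same reason no replicate could be left out. Over all alternatives, 554 member ratios were recomputed. Among members with 100 or more UMIs, 5 of 9 were 1.5-fold or more higher in basal keratinocytes, where 6.85% of all such genes were. In spinous keratinocytes 2 of 9 were (4.96%), in granular keratinocytes 1 of 4 (23.9%) and in fibroblasts 4 of 10 (4.97%). None of 5 was in T and innate lymphoid cells (4.49%). Such shares are not given for the alternatives. Below are members past 1.5-fold higher among those with 10 or more UMIs, where an alternative moved the count by more than 1.5 times. They numbered 6 in basal keratinocytes (1 with the same cluster weights, and 4 to 7 with the others), 2 in spinous keratinocytes (1 with no cell filter, 1 with a stricter cell filter, 1 as a mean over cells) and 4 in granular keratinocytes (2 with a stricter marker gate, 2 thinned to 2000 UMIs, 1 with TMM, 1 with median-of-ratios scaling, 1 as a mean over cells). They numbered 4 in fibroblasts (7 with TMM, 7 with median-of-ratios scaling, 0 with the same cluster weights, where the median log2 ratio was 0.30) and 1 in T and innate lymphoid cells (2 with a stricter cell filter, 2 with TMM, 2 with median-of-ratios scaling). Of 59 ratios, 16 changed sign under at least 1 alternative, and 4 of these were past 1.5-fold as reported. The 4 were basal Nfkbie (-0.0035), spinous Nfkbie (1.07) and granular Nfkb2 (-0.69) as a mean over cells, and granular Relb (-0.58) when thinned. The other 12 included spinous Bcl3 (-1.27) and Rela (-0.40) when thinned, and fibroblast (-0.13) and basal (-0.09) Nfkb1 with the same cluster weights. The cause was not tested. TMM shifted log2 ratios by 0.21 in basal keratinocytes, -0.28 in granular keratinocytes and 0.14 in fibroblasts. Basal ratios over alternatives ran from 1.47 to 2.70 for Rel, 1.37 to 2.72 for Nfkbia, 1.31 to 2.34 for Nfkbiz and 1.09 to 4.63 for Bcl3. Depth limits Nfkbie in keratinocytes and most members in granular keratinocytes and neutrophils.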
